A study of Mus musculus with 24 samples.

Results

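Nrsn1 and Nrsn2 encode neurensin-1 and neurensin-2, the 2 neurensin genes among the 23872 genes listed in the RNA or the footprint counts of this study. Both were measured in all 24 libraries and both passed the filter on low counts. They were chosen by name, with one measured result already known: Nrsn1 footprints were lower after DHPG. For that reason every Nrsn1 value of DHPG against vehicle is given here as a description with its error and without a test. The effect of genotype on Nrsn1, the interaction of genotype and DHPG, and every comparison of Nrsn2 were tested.

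Neurensins are small membrane proteins found mainly in neurons, where they sit on vesicles in the cell body and the neurites. Neurensin-1 has been linked to the transport of such vesicles and to neurite outgrowth, and neurensin-2 is its close relative. In ribosome profiling, the stretch of mRNA covered by a ribosome is protected from nuclease and sequenced. The number of these footprints on a coding sequence, set against the RNA level, is taken as a measure of how densely ribosomes occupy the message.

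Acute hippocampal slices came from Tsc2+/- mice, which carry a germline deletion of 1 copy of Tsc2 made by crossing CMV-Cre with floxed Tsc2 animals, and from wild-type (WT) littermates, all male and aged 28 to 42 days. TSC2 is a subunit of the complex that restrains mTOR signalling. Slices of each genotype received either vehicle (artificial cerebrospinal fluid) or 100 µM DHPG, which activates group I metabotropic glutamate receptors, for 5 min, and cycloheximide was present afterwards in all groups to hold ribosomes in place. There were 4 groups (WT vehicle, WT DHPG, Tsc2+/- vehicle and Tsc2+/- DHPG) with 3 RNA and 3 footprint libraries in each. CA3 had been cut away, each library pooled slices of several mice, and an RNA and a footprint library were made from the same lysate, so p-values refer to the spread between pooled preparations.

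Nrsn1 lies on the minus strand of mouse chromosome 13 (GRCm38.p6, the build called mm10) from 25252039 to 25269996. Its RefSeq transcript has 4 exons and 2137 bases, with 591 coding bases in 2 exons. Nrsn2 lies on the minus strand of chromosome 2 from 152368755 to 152376625, and its longest annotated coding sequence has 609 bases in 2 exons of a 1422-base transcript. Other annotated Nrsn2 transcripts have 426 and 528 coding bases. Within the longest coding sequences 61.0% of 554 aligned bases were identical (338 bases), and the longest run shared between both was 12 bases, shorter than a footprint. The authors kept uniquely mapped reads. Footprints were counted over the coding sequence without its first and last 30 bases, which left 531 bases in Nrsn1 and 549 in Nrsn2. The first 60 coding bases of Nrsn2 are shown, 5′ to 3′ on the coding strand, because they show where counting began: lower case marks the uncounted bases and capitals the first counted ones. They are from RefSeq, at chr2:152374222-152374281.
Nrsn2: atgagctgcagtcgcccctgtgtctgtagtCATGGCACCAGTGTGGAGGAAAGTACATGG

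RNA libraries held 14801679 to 24067838 counts and footprint libraries 5296006 to 13613673. Nrsn1 received 5568 to 9210 RNA counts and 182 to 519 footprint counts per library, and Nrsn2 1538 to 3090 and 468 to 1382. In the 8 footprint libraries of replicates 2 and 3, 97.9% to 98.5% of the non-zero counts were even, against 48.2% to 49.0% in replicate 1. If each read was counted 2 times there, the Nrsn1 footprint counts of these 8 libraries stand for 91 to 179 reads, with a counting error of 7.47% to 10.5%, against 4.39% to 6.17% in replicate 1. The counting error of Nrsn2 footprints was then 4.65% to 6.54% in replicates 2 and 3 and 2.69% to 3.58% in replicate 1. Tsc2 itself, which checks the genotype labels, lay between 186 and 214 CPM (counts scaled by library size) of RNA in the 6 WT libraries and between 128 and 137 CPM in the 6 Tsc2+/- libraries. Its footprints lay between 123 and 146 CPM in WT and between 76.5 and 84.5 CPM in Tsc2+/- libraries, so the genotypes did not overlap in either assay.

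The neurensins stood in opposite order in RNA and in footprints. On the per-length scale (CPM per kb, RNA over the transcript and footprints over the counted coding bases), Nrsn1 RNA averaged 178 ± 2.31 (SD, n = 3) in WT vehicle libraries and Nrsn2 RNA 82.9 ± 8.95. Nrsn1 was thus among the more abundant messages, above 97.9% of the 11987 genes with a length and counts in both assays, and Nrsn2 was above 94.2% of them, where the median gene had 8.29. Footprint levels per length were 86.7 ± 5.6 for Nrsn1 and 175 ± 12.7 for Nrsn2, above 84.7% and 92.0% of genes with a median of 16.9. In all 12 RNA libraries the Nrsn1 level per length was higher than that of Nrsn2, by 1.74 to 2.47 times (mean 2.05 ± 0.189). In all 12 footprint libraries it was lower.

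**Figure D1:**
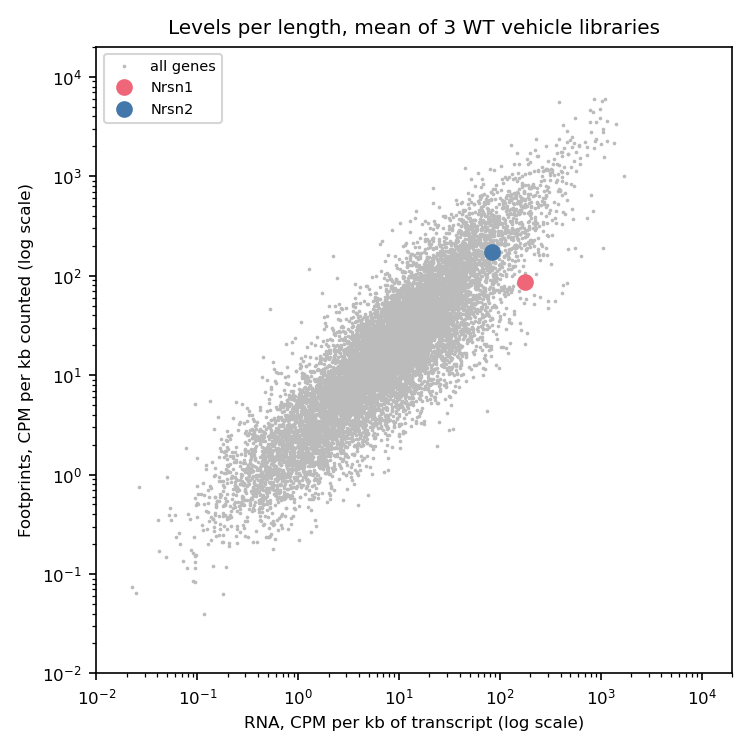
RNA level (x axis) against footprint level (y axis), both in CPM per kb on log scales and averaged over 3 WT vehicle libraries, with each of 11987 genes as a grey point. Nrsn1 (red) sits in the lower part of the cloud at its RNA level of 178, with some genes below it. Nrsn2 (blue) lies within the cloud at 82.9.

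Footprints per RNA, the ratio of these per-length levels, set the genes further apart. For Nrsn1 it was 0.512, 0.455 and 0.499 in WT vehicle replicates 1, 2 and 3 (mean 0.488 ± 0.0298), and only 3.70% of genes had a lower ratio of mean levels. For Nrsn2 it was 2.58, 1.95 and 1.88 (mean 2.14 ± 0.385), and its ratio of mean levels, 2.11, was near the median gene's 2.22, with 47.2% of genes below it. Nrsn1 was therefore an abundant message with sparse footprints, whereas Nrsn2 carried footprints at a typical density. With the shortest annotated Nrsn2 coding sequence as its length, the Nrsn2 value was 2.92 ± 0.526, so the gap depends in size on the transcript used. Since RNA was counted over whole transcripts and footprints over coding bases, transcript length enters this ratio.

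After DHPG, Nrsn1 footprints were lower in every library than in any vehicle library. In WT vehicle slices the Nrsn1 footprint level was 48.8, 42.9 and 46.4 CPM in replicates 1, 2 and 3 (mean 46.0 ± 2.97), and in WT DHPG slices it was 37.8, 35.7 and 28.1 CPM (mean 33.9 ± 5.08). In Tsc2+/- vehicle slices it was 46.1, 47.5 and 46.0 CPM (mean 46.5 ± 0.840), and in Tsc2+/- DHPG slices 32.4, 34 and 39.4 CPM (mean 35.3 ± 3.66). The 6 vehicle libraries thus spanned 42.9 to 48.8 CPM and the 6 DHPG libraries 28.1 to 39.4 CPM, without overlap, while the genotypes overlapped within each treatment. From the footprint levels of bulk slices alone, fewer cells expressing a gene and less signal per cell cannot be told apart. The Nrsn1 RNA levels are given below.

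The fitted log2 fold change of Nrsn1 footprints (edgeR, with replicate number in the model) was -0.43 (SE 0.108) in WT and -0.39 (SE 0.109) in Tsc2+/- slices. Averaged over genotypes it was -0.41 (SE 0.0770), a level 0.75 times that in vehicle. Compared within replicate numbers, DHPG libraries were lower in 6 of 6 contrasts, by 0.22 to 0.72 on the log2 scale. The 3 WT contrasts were -0.37, -0.26 and -0.72 for replicates 1, 2 and 3, and the 3 Tsc2+/- contrasts were -0.50, -0.48 and -0.22. The largest and the smallest of the 6 both came from replicate 3, one from each genotype. Across all 12877 genes tested for footprints, 0.0311% (4 genes) were called for DHPG averaged over genotypes and 0.0311% for DHPG in WT, where called means an adjusted p under 0.1. DHPG in Tsc2+/- called 0% of genes by edgeR and 0 genes by DESeq2, with 519 genes at an unadjusted p under 0.05 in edgeR. Because these comparisons chose Nrsn1, nothing is read from its place among them.

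Nrsn1 RNA did not follow its footprints. RNA levels were 384, 380 and 374 CPM in WT vehicle (mean 379 ± 4.94) and 368, 398 and 326 CPM in WT DHPG (mean 364 ± 36.2). In Tsc2+/- slices they were 371, 370.5 and 363 CPM in vehicle (mean 368 ± 4.19) and 380, 388 and 357 CPM after DHPG (mean 375 ± 16). The 6 DHPG libraries spanned 326 to 398 CPM and enclosed the vehicle range of 363 to 384 CPM. The log2 fold change of Nrsn1 RNA with DHPG was -0.06 (SE 0.0511) in WT, 0.02 (SE 0.0508) in Tsc2+/- and -0.02 (SE 0.0360) averaged, with 3 of 6 contrasts higher. WT DHPG replicate 3 had both the lowest Nrsn1 RNA and the lowest Nrsn1 footprint level of its assay.

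Footprints per RNA of Nrsn1 accordingly separated by treatment. On the per-length scale the ratio was 0.413, 0.361 and 0.347 in WT DHPG (mean 0.373 ± 0.0347), against the WT vehicle values given above. It was 0.50, 0.516 and 0.509 in Tsc2+/- vehicle (mean 0.508 ± 0.00780) and 0.344, 0.353 and 0.445 in Tsc2+/- DHPG (mean 0.381 ± 0.0557). All 6 vehicle values (0.455 to 0.516) lay above all 6 DHPG values (0.344 to 0.445), although the highest DHPG and the lowest vehicle value were close. The log2 fold change in footprints per RNA was -0.36 (SE 0.109) in WT, -0.42 (SE 0.110) in Tsc2+/- and -0.39 (SE 0.0776) averaged, negative in 6 of 6 contrasts. For this measure 0.0469% of 12785 genes (6 genes) were called for DHPG in WT and 0.0469% averaged over genotypes. In Tsc2+/- slices 0% were called by edgeR and 0 genes by DESeq2, with 467 at an unadjusted p under 0.05.

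**Figure D2:**
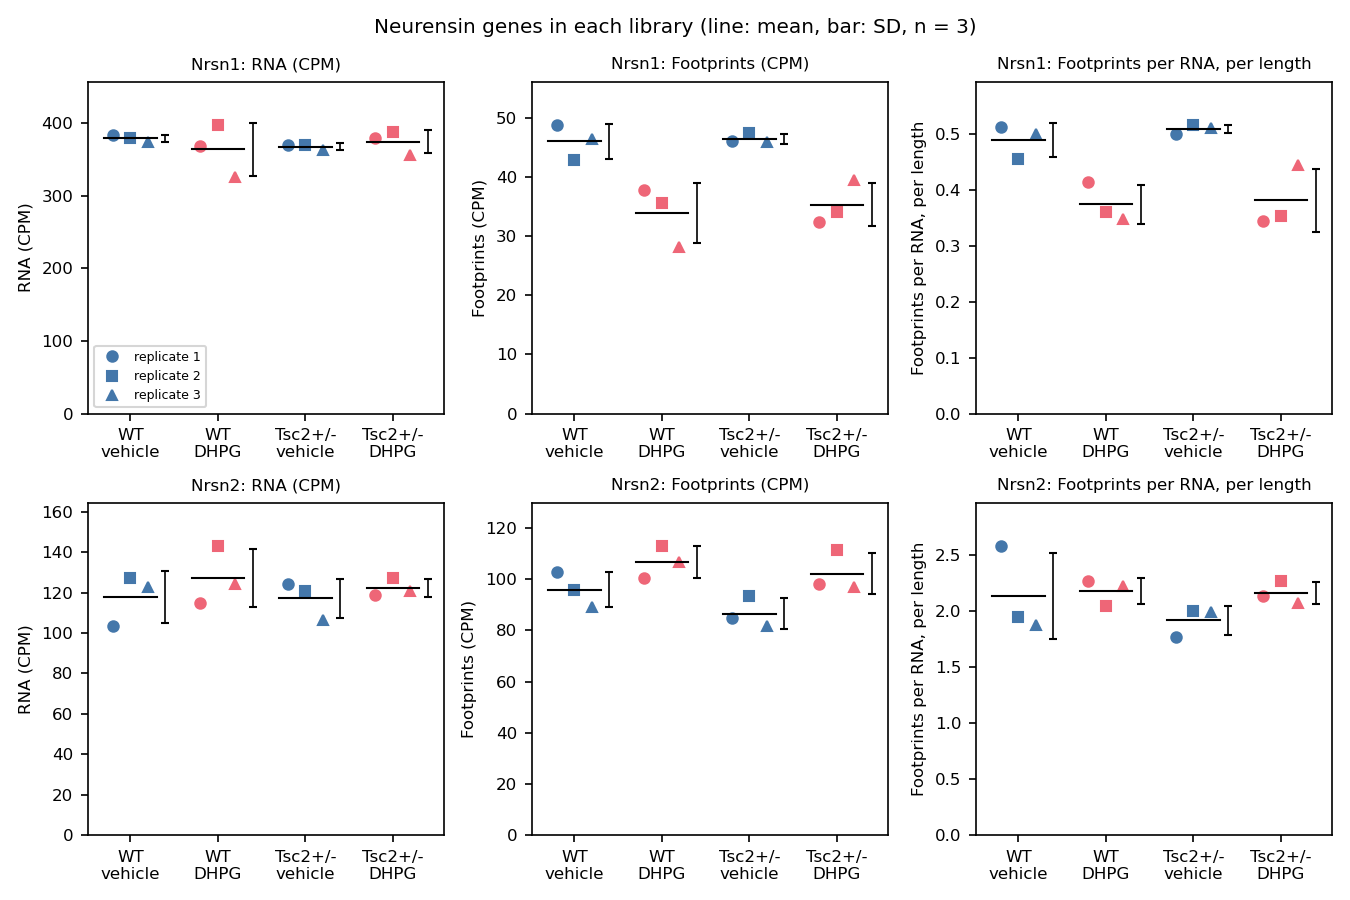
RNA level (CPM), footprint level (CPM) and footprints per RNA (ratio of per-length levels) of Nrsn1 (top) and Nrsn2 (bottom) in every library, with vehicle in blue, DHPG in red, marker shape for replicate number, a line for the mean and a bar for the SD of 3 libraries. Nrsn1 footprints separate vehicle (42.9 to 48.8 CPM) from DHPG (28.1 to 39.4 CPM), as do Nrsn1 footprints per RNA, while the treatments overlap in Nrsn1 RNA and, over both genotypes, in all Nrsn2 measures.

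Nrsn2 footprints leaned the other way. In WT vehicle slices the Nrsn2 footprint level was 103, 95.9 and 89.0 CPM in replicates 1, 2 and 3 (mean 95.9 ± 6.95), and in WT DHPG slices 101, 113 and 107 CPM (mean 107 ± 6.13). In Tsc2+/- slices it was 84.8, 93.3 and 81.6 CPM in vehicle (mean 86.6 ± 6.07) and 98.0, 111 and 97.0 CPM after DHPG (mean 102 ± 8.03). DHPG and vehicle did not overlap within Tsc2+/- but did within WT, where vehicle replicate 1 exceeded DHPG replicate 1. The log2 fold change with DHPG was 0.15 (SE 0.0749, adjusted p = 0.731) in WT and 0.24 (SE 0.0760, adjusted p = 0.9999) in Tsc2+/- slices. Averaged over genotypes it was 0.19 (SE 0.0534), or 14.3% higher, in 5 of 6 contrasts, with an unadjusted p of 0.00102 and an adjusted p of 0.32 by the edgeR quasi-likelihood test, so it did not pass.

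That result passed the threshold in 1 of the fits that left out libraries. Without WT vehicle replicate 1 the averaged log2 fold change of Nrsn2 footprints was 0.23, with an adjusted p of 0.0435 by the edgeR test. Without all libraries of replicate 1 it was 0.25, the largest of these fits, and was not called. Each adjusted p also depends on the other genes of its fit. Leaving out libraries or replicate numbers otherwise gave adjusted p-values up to 0.909, and other settings 0.187 to 0.995. WT vehicle replicate 1 stood out for Nrsn2 in both assays. It had the highest footprint level among vehicle libraries (103 CPM) and the lowest RNA level of all 12 (103 CPM).

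Nrsn2 RNA varied more between replicates than Nrsn1 RNA did in vehicle slices. It was 103, 127 and 123 CPM in WT vehicle (mean 118 ± 12.7) and 115, 143 and 124 CPM in WT DHPG (mean 127 ± 14.3). In Tsc2+/- slices it was 124, 121 and 106 CPM in vehicle (mean 117 ± 9.48) and 119, 127 and 121 CPM after DHPG (mean 122 ± 4.43). All 4 groups overlapped. The log2 fold change of Nrsn2 RNA with DHPG was 0.11 (SE 0.0663, adjusted p = 0.825) in WT and 0.06 (SE 0.0657, adjusted p = 0.9998) in Tsc2+/- slices. Averaged, it was 0.09 (SE 0.0466, adjusted p = 0.688), higher in 5 of 6 contrasts. DHPG called 0.0207% of 14516 genes in RNA when averaged over genotypes. In WT and in Tsc2+/- slices taken alone 0% were called by edgeR and 0 genes by DESeq2, with 936 and 627 genes at an unadjusted p under 0.05.

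Nrsn2 footprints per RNA were 2.27, 2.05 and 2.22 in WT DHPG (mean 2.18 ± 0.118) on the per-length scale. In Tsc2+/- slices they were 1.77, 2.0 and 1.99 in vehicle (mean 1.92 ± 0.129) and 2.14, 2.27 and 2.08 after DHPG (mean 2.16 ± 0.0967). Tsc2+/- DHPG libraries lay above Tsc2+/- vehicle libraries, while WT vehicle, with 1 value of 2.58, spanned both WT and Tsc2+/- DHPG. The log2 fold change with DHPG was 0.05 (SE 0.104, adjusted p = 0.935) in WT, 0.17 (SE 0.104, adjusted p = 0.9993) in Tsc2+/- and 0.11 (SE 0.0737, adjusted p = 0.708) averaged. Within 2 SE, the averaged change lay between -0.04 and 0.26.

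Since the ratio of both genes within a library is free of library scaling, it gives a second view of the same counts. In footprint counts, Nrsn2 exceeded Nrsn1 by 1.78 to 2.23 times in the 6 vehicle libraries (mean 1.97 ± 0.171) and by 2.46 to 3.79 times in the 6 DHPG libraries (mean 3.06 ± 0.472). The mean of WT libraries was 2.09 ± 0.159 in vehicle and 3.21 ± 0.566 after DHPG, and that of Tsc2+/- libraries 1.86 ± 0.0970 and 2.92 ± 0.416. The treatments did not overlap. This ratio contains the Nrsn1 footprints that led to the choice of the gene, so it is a description. In RNA per length, Nrsn1 exceeded Nrsn2 by 2.13 ± 0.199 times in vehicle and by 1.97 ± 0.154 times in DHPG libraries, whose ranges overlapped (1.98 to 2.47 and 1.74 to 2.14). Footprints per RNA of Nrsn2 were 4.07 ± 0.534 times those of Nrsn1 in vehicle and 5.81 ± 0.677 times in DHPG libraries.

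**Figure D3:**
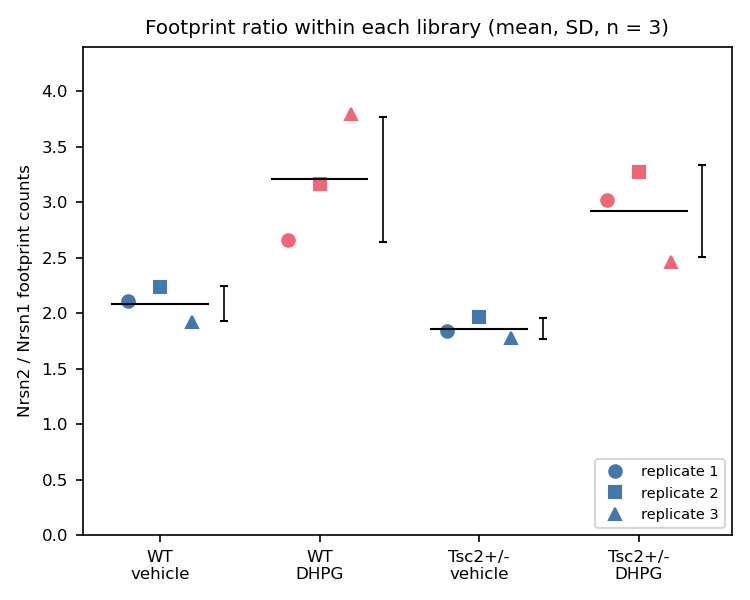
Ratio of Nrsn2 to Nrsn1 footprint counts (y axis, no unit) in each of the 12 footprint libraries by group, with vehicle in blue, DHPG in red, marker shape for replicate number, a line for the mean and a bar for the SD of 3 libraries. Vehicle libraries sit between 1.78 and 2.23 and DHPG libraries between 2.46 and 3.79.

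Genotype was then tested for both genes. Nrsn1 RNA had a log2 fold change between Tsc2+/- and WT slices of -0.04 in vehicle (SE 0.0509, adjusted p = 0.991) and of 0.04 in DHPG (SE 0.0510, adjusted p = 0.997). Averaged over treatments the 2-SE bounds were -0.07 and 0.07, so the Nrsn1 RNA levels of the genotypes lay close together (372 ± 24.6 CPM in 6 WT and 371 ± 11.1 CPM in 6 Tsc2+/- libraries). Nrsn1 footprints differed by 0.02 (SE 0.107, adjusted p = 0.989) in vehicle, by 0.06 (SE 0.111, adjusted p = 0.9995) in DHPG and by 0.04 (SE 0.0771, adjusted p = 0.959) averaged, with averaged 2-SE bounds of -0.12 and 0.19. The genotype effect on Nrsn1 footprints per RNA was 0.07 (SE 0.108) in vehicle, 0.01 (SE 0.112) in DHPG and 0.04 (SE 0.0777) averaged, with adjusted p-values of 0.963, 0.9996 and 0.996.

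For Nrsn2 footprints the Tsc2+/- library was the lower one in 6 of 6 contrasts. The log2 fold change was -0.15 (SE 0.0765, adjusted p = 0.757) in vehicle, -0.06 (SE 0.0743, adjusted p = 0.9995) in DHPG and -0.11 (SE 0.0533, adjusted p = 0.749) averaged, which did not pass the test. Nrsn2 RNA differed by -0.01 (SE 0.0661) in vehicle, -0.05 (SE 0.0659) in DHPG and -0.03 (SE 0.0467, adjusted p = 0.967) averaged. Its footprints per RNA differed by -0.13 (SE 0.105, adjusted p = 0.901) in vehicle, -0.01 (SE 0.103) in DHPG and -0.07 (SE 0.0737, adjusted p = 0.996) averaged. The 5 dentate granule cell markers, by comparison, had a median genotype change averaged over treatments of -0.84 in footprints, with 0 called, and of -0.92 in RNA, with 1 called (Prox1, -0.41, SE 0.0852, adjusted p = 0.0161), and their part in the Nrsn2 values was not tested. Neither neurensin was called for genotype in any measure, where few genes were. In RNA 0.0896% of genes were called in vehicle, 0.0482% in DHPG and 0.227% averaged, and in footprints 0.0233%, 0.0155% and 0.0621%. Footprints per RNA had 0% called by edgeR in vehicle, in DHPG and averaged, with 725, 388 and 573 genes at an unadjusted p under 0.05, while DESeq2 called 1, 0 and 0 genes.

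The interaction asked whether DHPG acted differently on the neurensins in Tsc2+/- than in WT slices. For Nrsn1 it was 0.04 in footprints (SE 0.154, 2-SE bounds -0.27 and 0.35, adjusted p = 0.9987), 0.09 in RNA (SE 0.0721, adjusted p = 0.9994) and -0.05 in footprints per RNA (SE 0.155, 2-SE bounds -0.37 and 0.26, adjusted p = 0.9996). The Nrsn1 interaction is built from DHPG changes that include the fall in footprints known beforehand. Its p-values are therefore not free of the choice of this gene. The span between the bounds for Nrsn1 footprints is wider than the averaged DHPG change itself. These libraries therefore do not show that the change was alike in both genotypes. For Nrsn2 the interaction was 0.09 in footprints (SE 0.107, adjusted p = 0.998), -0.05 in RNA (SE 0.0933, adjusted p = 0.9994) and 0.13 in footprints per RNA (SE 0.147, adjusted p = 0.9996). No gene was called for the interaction by edgeR: 0% in RNA, 0% in footprints and 0% in footprints per RNA, with 503, 490 and 520 genes at an unadjusted p under 0.05. DESeq2 called 0, 0 and 1.

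**Figure D4:**
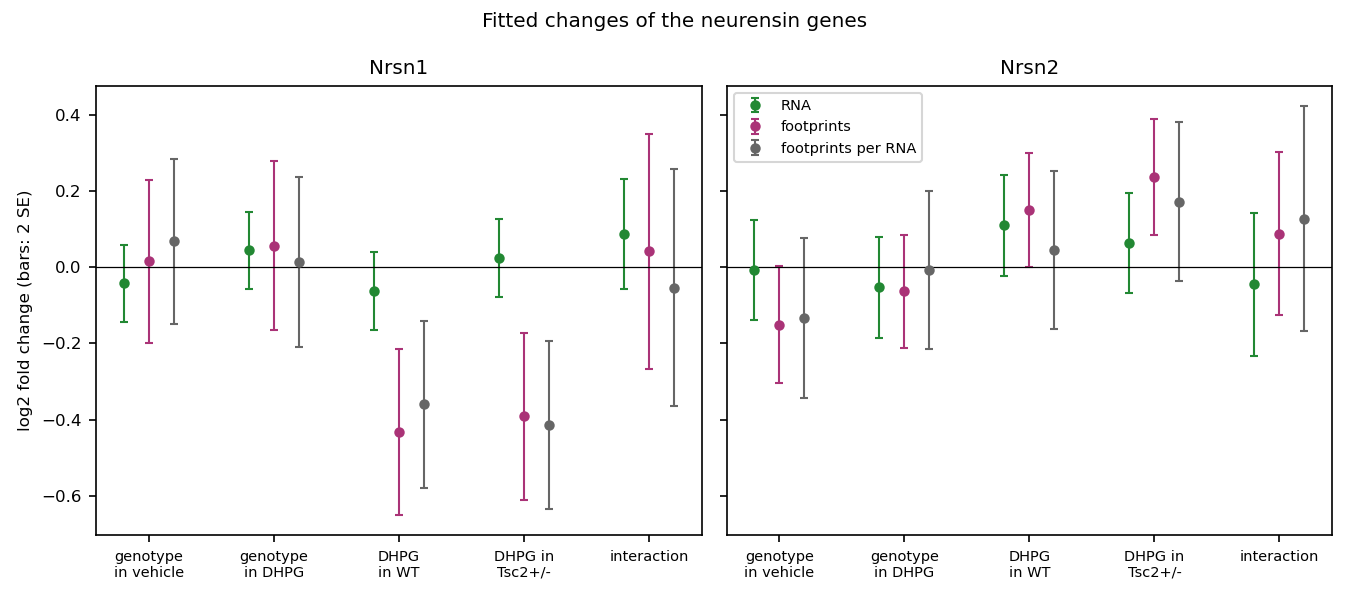
Fitted log2 fold changes (y axis) of Nrsn1 (left) and Nrsn2 (right) for genotype in vehicle and in DHPG, DHPG in WT and in Tsc2+/-, and their interaction, in RNA (green), footprints (purple) and footprints per RNA (grey), with bars of 2 SE from 12 libraries per assay. Only the Nrsn1 DHPG values of footprints and footprints per RNA, which were not tested because they chose the gene, lie well below 0 (-0.43 to -0.36), and the Nrsn2 footprint value in Tsc2+/- lies above 0 (0.24).

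Other genes for vesicles, their motors and neurites were examined beside the neurensins. The list held 28 genes, all of which passed the filter in both assays. With 0.0311% of all genes called for averaged DHPG in footprints, 0 called among these genes shows little. Of the 12 genes for neuronal vesicle membrane proteins 0 were called for DHPG averaged over genotypes in footprints, with a median log2 fold change of 0.05 against -0.002 over all genes. Their values ran from 0.002 to 0.19, and 12 of 12 were positive, on the side of Nrsn2 rather than Nrsn1. Taken by genotype, 9 of 12 were positive in WT (median 0.03) and 12 of 12 in Tsc2+/- slices (median 0.07). Syp (synaptophysin, an abundant synaptic vesicle protein) had 0.01 (SE 0.0333, adjusted p = 0.977), and Syt1 (synaptotagmin-1, the calcium sensor of release) had 0.09 (SE 0.0307, adjusted p = 0.561). In RNA the median of these 12 genes was -0.005, with 5 positive.

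Of the 8 genes for kinesin and dynactin subunits that carry vesicles along microtubules, 0 were called for averaged DHPG in footprints, and the median was -0.04 with 0 positive. That direction held in WT (0 of 8 positive, median -0.09) but not in Tsc2+/- slices (5 of 8 positive, median 0.02). Kif1a, a kinesin that carries synaptic vesicle precursors, had -0.02 (SE 0.0376, adjusted p = 0.973), and Kif1b had -0.01 (SE 0.0342, adjusted p = 0.978). The 8 genes for neurite growth and microtubule proteins had a median of -0.01 with 3 positive and 0 called. In WT 1 of 8 was positive (median -0.10), and in Tsc2+/- slices 5 of 8 were (median 0.06). Among them Map1b, a microtubule-associated protein, had -0.04 (SE 0.0816, adjusted p = 0.972) and Dpysl2, a regulator of axon growth, -0.02 (SE 0.0320, adjusted p = 0.962). The lowest of all 28 values was -0.12. Genotype called 1 of the 28 genes, in RNA (where 0.0896% of all genes were called in vehicle and 0.227% averaged), and 0 in footprints and in footprints per RNA. It was the kinesin heavy chain gene Kif5a, named after its values were seen, with a log2 fold change of 0.24 in vehicle (SE 0.0442, adjusted p = 0.0091) and 0.22 averaged (SE 0.0312, adjusted p = 8.76e-05).

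**Figure D5:**
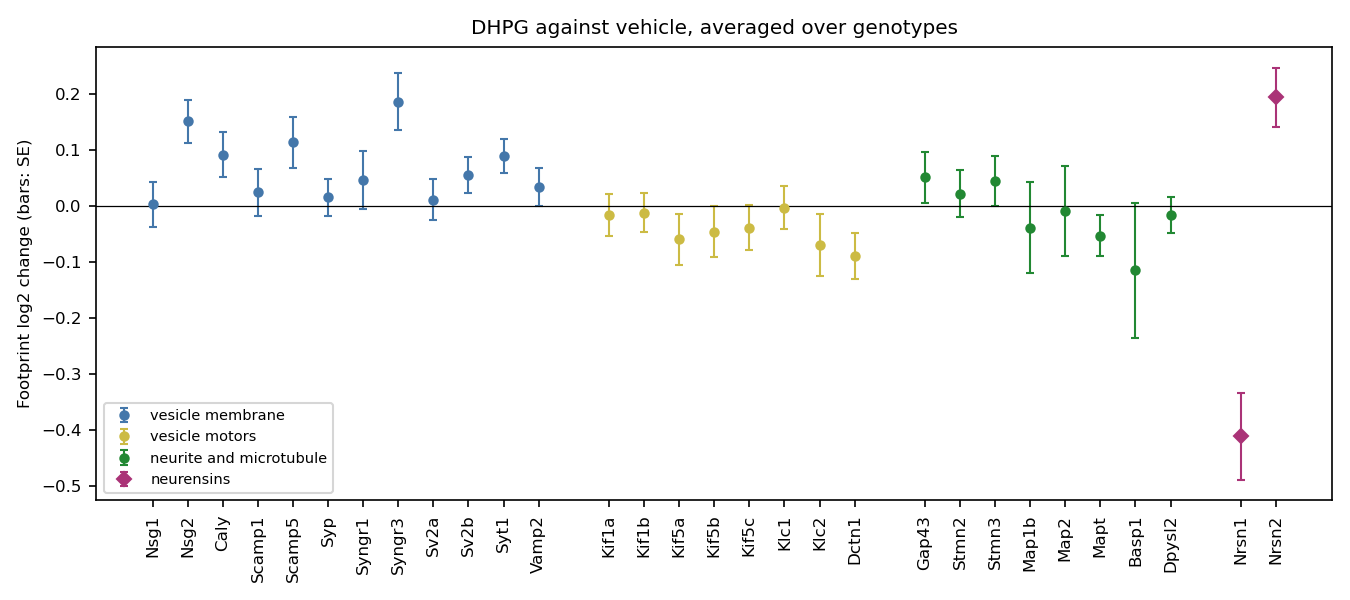
Log2 fold change of footprints with DHPG averaged over genotypes (y axis, bars of 1 SE, 12 libraries) for 12 vesicle membrane genes (blue), 8 vesicle motor genes (yellow), 8 neurite and microtubule genes (green) and the neurensins (purple diamonds). The 28 other genes lie between -0.12 and 0.19, and Nrsn2 lies at 0.19. Nrsn1 lies at -0.41, but its fall was known when it was chosen, so its place is a description.

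The genes most like each neurensin were found by Pearson's r of log2 CPM, centred within replicate number, over the 12 libraries of an assay. This is a description in which libraries share treatment, genotype and depth. In footprints, among 10163 genes with a mean count of at least 50, Nrsn1 was most like Wipf2 (r = 0.937), Krr1 (r = 0.933) and Ppp2r5b (r = 0.917). Nrsn2 was most like Reep2 (r = 0.913), Ppp1r11 (r = 0.905) and Nkiras1 (r = 0.904). In RNA, among 12047 genes, the nearest to Nrsn1 were Nedd8 (r = 0.923), Esf1 (r = 0.922) and Dync2h1 (r = 0.915), and the nearest to Nrsn2 were Ankrd9 (r = 0.920), P4htm (r = 0.913) and BC022687 (r = 0.905). Between Nrsn1 and Nrsn2 themselves r was -0.73 in footprints and -0.06 in RNA. The footprint values of Nrsn1 contain its fall with DHPG, which was known beforehand.

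Neighbouring genes on the chromosome were compared as well. Dcdc2a, a doublecortin-domain gene 41.3 kb from Nrsn1, had a footprint log2 fold change with DHPG of -0.09 (SE 0.149, adjusted p = 0.956) and an RNA value of -0.16 (SE 0.10, adjusted p = 0.736). On the other side, the nearest tested gene was Sox4, a transcription factor gene 3678.9 kb away, with -0.04 in footprints (SE 0.0890, adjusted p = 0.968) and 0.16 in RNA (SE 0.0697, adjusted p = 0.587). Nrsn2 lies 17.0 kb from Sox12, another transcription factor gene, whose RNA value was -0.01 (SE 0.0563, adjusted p = 0.985), and which had only 1.74 ± 0.661 CPM of footprints (n = 12). Trib3, a pseudokinase gene 24.7 kb from Nrsn2, had at most 1.18 CPM of RNA. Gm14164, an annotated gene on the opposite strand that overlaps Nrsn2, had 0 RNA counts in 11 libraries and 1 count in the other.

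Markers of the cells in the slices were summed per library beside the DHPG values. Over all genes, DHPG averaged over genotypes called 0.0311% in footprints and 0.0207% in RNA, so 0 called in a list this short shows little. The 4 pan-neuronal markers summed to 4152 to 4679 CPM in footprints over all groups, with 0 called and a median log2 fold change with DHPG of 0.02. The 6 CA1 pyramidal markers summed to 963 to 1223 CPM in vehicle and 988 to 1075 CPM in DHPG libraries, with 0 called and a median of -0.02. The 5 dentate granule cell markers, at low level, had a median of -0.47 in footprints (5 of 5 negative) and -0.36 in RNA (3 of 5 negative) with DHPG, and 0 were called. Their footprint sum was 29.3 to 64.7 CPM in vehicle and 38.7 to 41.0 CPM after DHPG in WT, and 33.9 to 41.7 and 21.2 to 30.3 CPM in Tsc2+/- slices, so they separated the treatments in Tsc2+/- but not in WT. Their RNA sum in Tsc2+/- slices had the same order (30.1 to 40.3 CPM in vehicle, 22.1 to 28.5 after DHPG). In WT the RNA sums of the treatments overlapped (30.9 to 53.9 CPM in vehicle, 39.4 to 45.45 after DHPG). Among these 5 markers, Prox1 had 96 to 249 footprint counts per library, Lct 15 to 115, C1ql2 14 to 108, Dsp 0 to 68 and Tdo2 2 to 36. Prox1, a transcription factor of granule cells and the marker with the most counts, had a footprint log2 fold change with DHPG of -0.32 averaged (SE 0.0940, adjusted p = 0.342) and an RNA value of 0.02 (SE 0.0852, adjusted p = 0.982). Dsp, C1ql2, Lct and Tdo2 had averaged footprint values of -1.18, -0.36, -0.55 and -0.47. The footprint values in WT were -0.34, -0.13, -0.29 and 0.26, and in Tsc2+/- slices -2.02, -0.60, -0.82 and -1.21. Their averaged RNA values were 0.0005, -0.36, -0.38 and -0.77. The RNA values in WT were 0.70, 0.07, 0.07 and -0.96, and in Tsc2+/- slices -0.70, -0.79, -0.82 and -0.58. The averaged Nrsn1 values were -0.41 in footprints and -0.02 in RNA. Nrsn1 footprints had -0.43 in WT and -0.39 in Tsc2+/- slices. The remaining lists (CA3 pyramidal, interneuron, astrocyte, oligodendrocyte, microglia and endothelial) had 0 called for DHPG, with footprint medians of -0.06, -0.02, -0.01, -0.09, -0.18 and -0.15. The part of cell makeup in the Nrsn1 footprint values was not tested.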

How the data were processed

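Each library was made from pooled slices, with RNA-seq and ribosome profiling from the same lysate. The authors trimmed adapters with cutadapt, removed rRNA and tRNA reads with Bowtie2, mapped to mm10 with TopHat2, removed duplicates by molecular identifier and estimated expected counts per gene with RSEM, RNA over RefSeq transcripts and footprints over coding sequences without 30 bases at each end. The deposited expected counts are whole numbers, were used as given, and held 23845 RNA and 20436 footprint genes, 27 of the RNA names being dates. Counting errors cover counting only.

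Genes were kept with filterByExpr (minimum count 10): 14516 for RNA, 12877 for footprints and 12785 for both. Contrasts were tested with the edgeR 4.0.16 quasi-likelihood test (robust, TMM scaling, two-sided, R 4.3.3) fitted to the 12 libraries of each assay by group. The replicate number was taken as batch and used as a block, since the study corrected for batch. Footprints per RNA were tested over 24 libraries as the footprint change minus the RNA change. This fit used the replicate number within each assay as block and did not pair libraries of the same lysate, which was an alternative. Benjamini-Hochberg adjustment ran over all genes of a contrast, with calls under 0.1, and SEs came from the F statistic. In simulated counts for DHPG averaged over genotypes, 12877 footprint genes included 100 given a log2 change of 0.5 and 100 given 1. Of these, 80% and 89% were called. The other 12677 genes were left unchanged, whereas 4 genes were called in the real counts. With so many changed genes the adjusted threshold is easier to pass, so these shares do not measure power in the real libraries. The study describes its own sample size as low in power.

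CPM used TMM-scaled library sizes, and log2 CPM a prior count of 2. Levels per length used RefSeq lengths (GRCm38.p6, the longest coding sequence). Genes named were the neurensins, Tsc2, the nearest tested gene on each side, the 3 genes most like each neurensin, and the 2 genes of each related list with the highest mean footprint CPM. Kif5a, the 5 dentate markers and Gm14164, which overlaps Nrsn2, were named outside this rule, after their values were seen. Members and lists were chosen with earlier results of these data known. Alternatives were no replicate block, DESeq2 1.42.0, RLE scaling, no count filter, ComBat (sva 3.50.0) then DESeq2, halved even counts, lysate as block, the shortest coding sequence, and omitting each replicate number or library in turn. The coding start of Nrsn1 is not reported here.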

Additional observations from a re-analysis of the deposited data

How the results depend on the processing

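Nrsn1 footprints with DHPG, averaged over genotypes, had a log2 fold change of -0.48 to -0.35 when replicate numbers or libraries were left out and of -0.42 to -0.36 under the other alternatives, and Nrsn1 footprints per RNA one of -0.46 to -0.33 on leaving out. Apart from leaving out, 51 of 51 Nrsn1 values of DHPG, which were not tested, kept their direction, and of the other 189 values 183 kept their direction and, where tested, their side of the threshold. The other 6 were Nrsn2 RNA interaction with ComBat and DESeq2 (0.0053), Nrsn1 footprints for genotype in vehicle with halved even counts (-0.0001), Nrsn1 footprints per RNA for genotype in DHPG with no count filter (-0.0037) and with halved even counts (-0.0384), Nrsn1 RNA for averaged genotype without the replicate block (-0.0008), and Nrsn2 footprints per RNA with the shortest coding sequence (2.92). The cause was not tested, except that the last follows from the shorter length. The replicate block changed no call of a neurensin. Deviations of same-numbered libraries correlated at 0.02 to 0.14 in RNA and 0.03 to 0.26 in footprints, so not every pair passed 0.1. The study's methods name batches but do not match them to replicate numbers, so taking the number as batch was an assumption. Over all genes, DESeq2 called more than edgeR for DHPG: 101 against 6 in WT and 65 against 6 averaged for footprints per RNA, 14 against 4 and 15 against 4 for footprints, and 26 against 3 averaged for RNA. For footprints per RNA, halved even counts called 23 genes in WT and 6 averaged, no count filter 9 and 6, and RLE scaling 6 and 6. The other block settings called fewer. With the lysate as block, 1 gene was called in WT and 2 averaged, and with no block 1 and 0. For RNA genotype averaged, 33 genes were called with the replicate block, 16 without it and 63 with no count filter.

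Leaving out replicates or libraries turned the sign of 22 results in 65 of 630 values: 19 tested results, none of which had passed, and 3 that were not tested. The latter were Nrsn1 RNA with DHPG, which ranged from -0.13 to 0.0048 in WT, -0.002 to 0.0556 in Tsc2+/- and -0.0622 to 0.0275 averaged. Among tested results, the ranges for Nrsn1 were -0.0145 to 0.10 for RNA genotype in DHPG, -0.0289 to 0.0294 for RNA genotype averaged, -0.051 to 0.0732 for footprint genotype in vehicle, -0.15 to 0.22 for footprint genotype in DHPG, -0.18 to 0.16 for the footprint interaction and -0.0603 to 0.15 for footprint genotype averaged. In Nrsn1 footprints per RNA they were -0.15 to 0.18 for genotype in DHPG, -0.23 to 0.0644 for the interaction and -0.038 to 0.15 for genotype averaged. For Nrsn2 RNA they were -0.14 to 0.0908 for genotype in vehicle, -0.10 to 0.0054 for genotype in DHPG, -0.0054 to 0.17 for DHPG in Tsc2+/-, -0.15 to 0.0596 for the interaction and -0.12 to 0.0157 for genotype averaged. In Nrsn2 footprints per RNA they were -0.24 to 0.0684 for genotype in vehicle, -0.0883 to 0.0399 for genotype in DHPG, -0.0512 to 0.20 for DHPG in WT, -0.0391 to 0.28 for the interaction and -0.16 to 0.0489 for genotype averaged. Nrsn2 footprints with DHPG averaged ranged from 0.17 to 0.25 and were called in 1 case, without WT vehicle replicate 1. Nrsn1 footprints had the fewest reads of the measures used, which limits its genotype and interaction values.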
